A study of Mus musculus with 16 samples.

Results

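The proteasome subunit genes were taken as every gene whose symbol begins with Psma, Psmb, Psmc, Psmd or Psme followed by a number. The interferon-inducible subunits Psmb8, Psmb9 and Psmb10 and names ending in -ps were left out. The rule found 42 of the 24532 genes in the table. By role these were 7 alpha-ring and 7 beta-ring genes of the 20S core particle, 6 ATPases, 3 further base subunits and 8 lid subunits of the 19S regulatory particle, 3 chaperones of 19S assembly (Psmd5, Psmd9, Psmd10), 4 activators (Psme1 to Psme4) and 2 tissue-restricted subunits (Psma8, Psmb11). The other 2, Psmc3ip and Psme2b, fit the rule by their letters and are described apart.

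RNA of sorted spleen cells of C57BL/6 mice, 12 weeks old, was sequenced in 16 libraries, 2 per group. GM-CSF, the colony-stimulating factor of granulocytes and macrophages, was given to treated mice in 3 once-daily injections, and the control groups came from mice labelled as controls. GM-CSF DC-Xs (XCR1- 33D1-), GM-CSF cDC1s and control cDC1s (XCR1+ 33D1-), and GM-CSF cDC2s and control cDC2s (XCR1- 33D1+) were sorted from the CD11c-high MHC II+ dendritic cell (DC) gate. P-IV (Ly6C- MHC II+ CD301b+, the cells that the study names GM-CSF-induced DCs), P-III (Ly6C- MHC II+ CD301b-) and P-I (Ly6C+, classical monocytes) were CD11b+ CD115-high cells, all from treated mice. DC-Xs are described as mostly P-IV cells with some P-III cells, so these groups overlap, and neither DC-Xs nor the CD115-high groups had a control group here.

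The proteasome is the protease of the cytosol and nucleus that degrades proteins tagged with ubiquitin. Its 20S core is a barrel of stacked rings, in which alpha rings form the gated ends and beta rings hold the catalytic sites. The 19S particle caps the barrel, binds the ubiquitin chain, removes it, and unfolds the substrate with its ATPases. In antigen-presenting cells the peptides it releases feed MHC class I presentation, and cDC1s are the DC subset known for presenting captured antigen on MHC class I.

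Values are FPKM, fragments scaled to transcript length and to the mapped fragments of the library. Levels may be compared between genes only roughly, because the libraries still differed in how values depend on transcript length. The test was limma on log2(FPKM + 1) over the 11335 genes that reached an FPKM of 1 in at least 2 libraries, with the spread pooled over all 8 groups. A gene passed at a Benjamini-Hochberg adjusted p below 0.05 over all genes tested, and "rose", "fell", "higher" or "lower" is used of a test only where it passed. Fold changes are on the log2(FPKM + 1) scale. Of the 42 genes 41 were tested, all except Psmb11.

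Summed markers followed the labels. The 4 markers of CD115-high cells and GM-CSF-induced DCs summed to 2980 to 3027 FPKM in P-IV and 1961 to 2254 FPKM in DC-Xs. They summed to 1208 to 1264 FPKM in P-III, 701 to 707 FPKM in P-I and at most 365 FPKM in cDC libraries. The 4 markers of P-I monocytes summed to 669 and 1152 FPKM in P-I and at most 282 FPKM elsewhere. Irf8, part of the cDC1 sum, had 1420 and 821 FPKM in control cDC1s and 92.1 to 146 FPKM in DC-Xs and the CD115-high groups. The 5 cDC1 markers summed to 1704 to 2420 FPKM in the 4 cDC1 libraries and to 5.13 to 29.2 FPKM in the 4 cDC2 libraries, and the 4 cDC2 markers summed to 4.95 to 15.3 FPKM and 400 to 541 FPKM in these. The 5 neutrophil markers summed to 124 and 210 FPKM in P-I and to at most 9.28 FPKM elsewhere. The 5 red pulp macrophage markers summed to 32.5 to 120 FPKM in cDC1 libraries and 215 to 365 FPKM in cDC2 libraries, and the 4 plasmacytoid DC markers to 60.5 to 100.5 FPKM and 29.6 to 46.6 FPKM. Of the macrophage markers 3 of 5 were lower in control cDC1s than in control cDC2s. In treated mice 1 of 5 was lower in cDC1s, and 0 were higher in either comparison. Libraries of the control groups overlapped for Spic and Hmox1, and Adgre1 alone had 232 and 310 FPKM in GM-CSF cDC2s. The plasmacytoid DC markers did not agree, with 2 higher and 2 lower in control cDC1s than in control cDC2s. Bst2, most of the sum, had 72.4 and 92.4 FPKM in control cDC1s and 33.9 and 34.1 FPKM in control cDC2s. Tcf4 had 1.69 and 3.30 FPKM in control cDC1s and 6.59 and 9.25 FPKM in control cDC2s. The 5 B cell markers summed to at most 1.55 FPKM in DC-Xs against at least 19.6 FPKM in P-IV, to 11.5 to 12.8 FPKM in GM-CSF cDC1s against 24.5 to 24.7 FPKM in control cDC1s, and to 12.5 to 15.3 FPKM in control cDC2s. The part of these cells in the results below was not tested. The libraries also differed in how values depend on transcript length, which bears on most results below because proteasome transcripts are short: 20 of the 41 tested genes were in the shortest of 5 equal length classes of all genes tested (up to 1506 bases) and 13 in the next class.

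The 31 core subunits (the 20S rings and the 19S ATPases, base and lid) were abundant in every group. Their FPKM summed to 2263 to 6891 per library, 0.509% to 1.10% of the summed FPKM of all genes. The 2 control cDC1 libraries held 0.941% and 1.10%, and the 2 P-I libraries 0.920% and 0.850%. The lowest library was 1 of the 2 DC-X libraries, at 0.509%, while the other held 0.760%. Across the 8 groups 26 of the 31 core subunits had their highest mean in control cDC1s, 19 had their lowest in DC-Xs and 8 in control cDC2s. The F-test for any difference among the groups passed for 27 of the 41 genes, against 65.3% of all genes tested. The SD of the group means on the log2 scale had a median of 0.38 over the core subunits and 0.46 over all genes tested, and the SD between replicates had medians of 0.24 and 0.28.

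**Figure D1:**
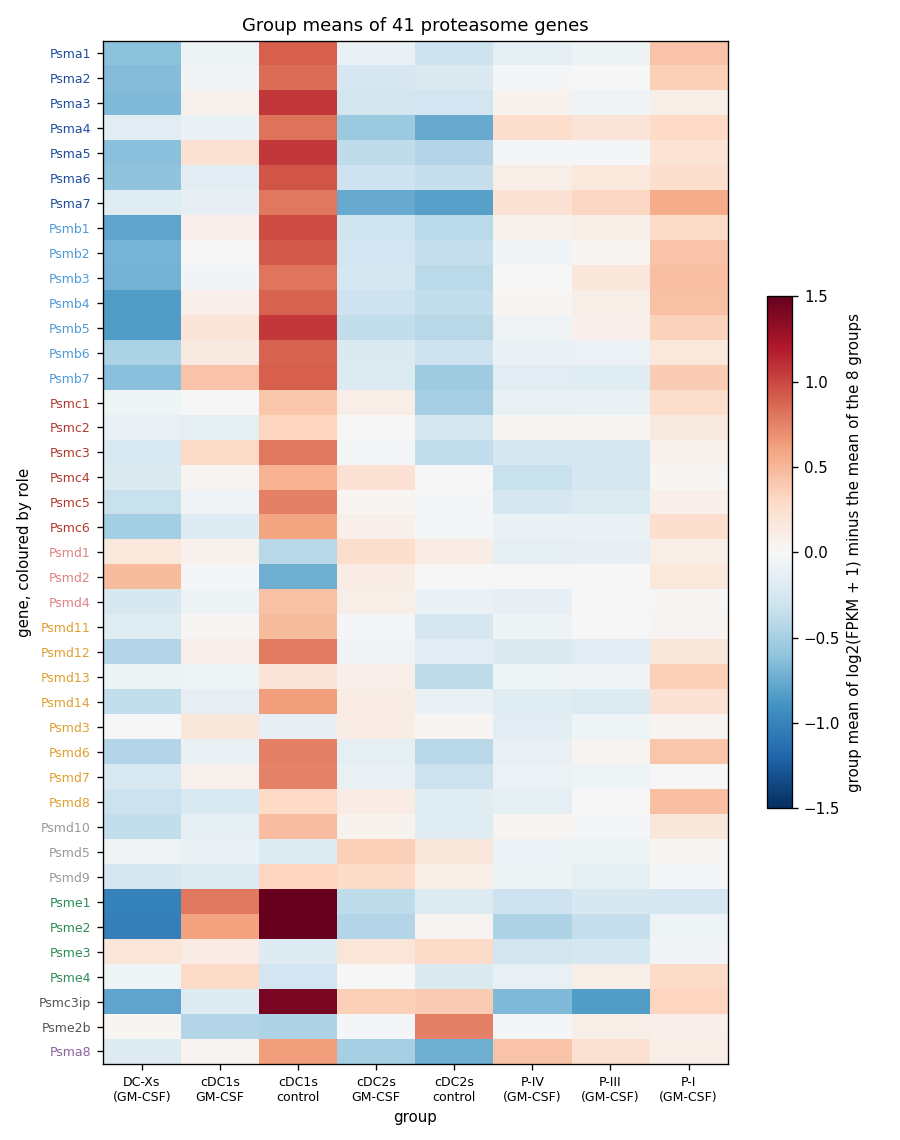
Group means of the 41 tested proteasome genes on the log2(FPKM + 1) scale, each minus the mean of its 8 groups; rows are genes coloured by role and columns are groups of 2 libraries. Most 20S genes, Psme1 and Psme2 are reddest in control cDC1s and bluest in DC-Xs or control cDC2s, while Psmd1 and Psmd2 run the other way, with no correction for transcript length.

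The core subunits largely varied together across libraries, which was not compared with other sets of genes. The median correlation between pairs of them over the 16 libraries was 0.77, given as a description because the libraries share groups, depth and length effects. Psma1, an alpha-ring gene, had the highest mean correlation with the other core subunits (0.76). Psmd2, Psmd1 and Psmd3 had the lowest (-0.34, -0.17 and -0.09). Psmd1 and Psmd2 encode the large scaffold subunits of the 19S base, which dock ubiquitin-binding shuttle proteins, and their transcripts are among the longest of the group, at 3112 and 2981 bases.

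The replicates of a group often differed in 1 direction across genes. Of the 31 core subunits 30 were higher in DC-X replicate 2 than in replicate 1, 29 in GM-CSF cDC2s, 28 in GM-CSF cDC1s, 27 in control cDC2s and 22 in control cDC1s. In P-III 23 and in P-IV 19 were higher in replicate 2, and in P-I 24 were higher in replicate 1. The differences between groups below are read against this spread.

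**Figure D2:**
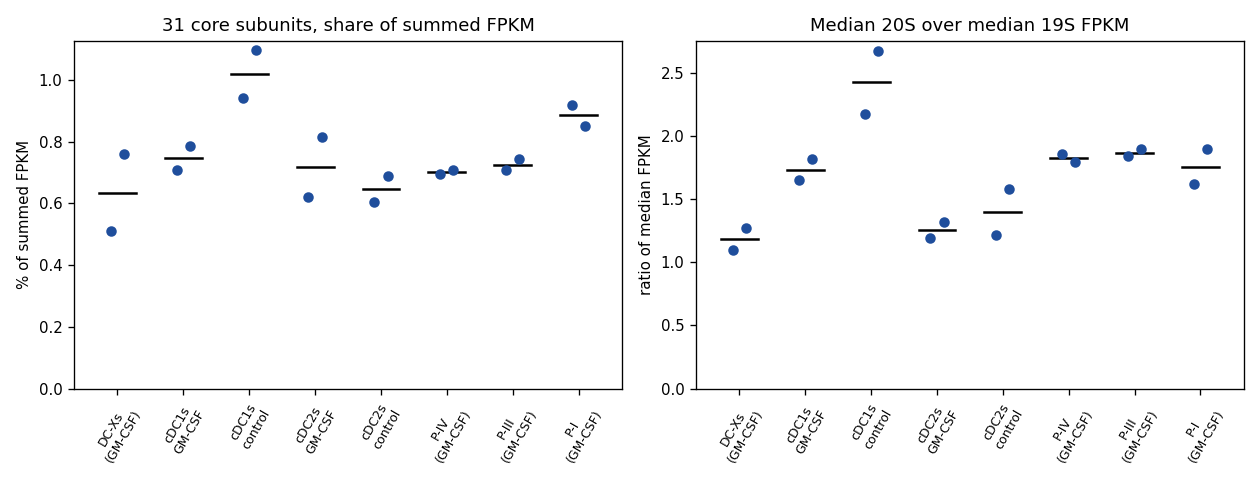
Left, the summed FPKM of the 31 core subunits as a percentage of the summed FPKM of all genes; right, the median FPKM of the 14 core 20S genes over that of the 17 core 19S genes. Dots are libraries and bars are means of 2; control cDC1s stand highest in both panels (0.941% and 1.10%; ratios of 2.18 and 2.68).

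The first comparison asked how the steady-state subsets differ. Proteasome genes were higher in control cDC1s than in control cDC2s: 26 of 41 were higher and 0 lower, against 18.3% of all genes higher and 28.4% lower, and 20 of them were at least 2-fold higher, against 31.8% of all genes that changed at least 2-fold in either direction. The median log2 fold change was 1.04 over the 41 genes and -0.26 over all genes tested. In bulk samples of this kind, a different mix of cells in the gate and a different RNA level per cell cannot be told apart.

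All 7 alpha-ring genes were higher, with log2 fold changes between 1.06 and 1.61. Psma7 had 393 and 537 FPKM in control cDC1s, against 128 and 176 FPKM in control cDC2s (log2 fold change 1.61 ± 0.27 SE, limma adjusted p = 0.000446). Psma4 had 237 and 399 FPKM in control cDC1s, against 86.6 and 122 FPKM in control cDC2s. Psma5 had 151 and 211 FPKM in control cDC1s, against 50.7 and 77.0 FPKM in control cDC2s. Neither group overlapped the other for any of these 3 genes, and replicate 2 was the higher library in both groups each time. Psma3 averaged 216 ± 55.7 FPKM in control cDC1s and 83.4 ± 11.2 FPKM in control cDC2s (SD, n = 2 each).

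All 7 beta-ring genes were higher too, by 1.19 to 1.47. Psmb5, which carries the chymotrypsin-like site, had 230 and 267 FPKM in control cDC1s, against 82.0 and 96.0 FPKM in control cDC2s (1.47 ± 0.18 SE, limma adjusted p = 5.5e-05). Psmb6, the caspase-like subunit, had 197 and 293 FPKM in control cDC1s, against 94.8 and 116 FPKM in control cDC2s. Psmb7, the trypsin-like subunit, had 153 and 179 FPKM in control cDC1s, against 47.4 and 78.3 FPKM in control cDC2s. The libraries did not overlap for any of these. With each library's trend on transcript length removed, the log2 fold changes were 0.71 for Psmb5 and 0.84 for Psmb7, which still passed, and 0.38 for Psmb6, which did not (limma adjusted p = 0.233).

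In the 19S genes the median fold changes were 0.69 for the ATPases and 0.72 for the lid, beside 1.34 for the alpha ring and 1.26 for the beta ring. With the length trend removed these medians were 0.54, 0.67, 0.97 and 0.68, and the difference between the particles was not tested. Of the 6 ATPases, which form the ring that unfolds substrates, 4 were higher: Psmc3 (1.16), Psmc1 (0.92), Psmc5 (0.77) and Psmc6 (0.62). Psmc1 had 139 and 126 FPKM in control cDC1s, against 78.9 and 61.9 FPKM in control cDC2s. Of the 8 lid genes 5 were higher, led by Psmd6 (1.17), a scaffold subunit of the lid, with 136 and 133 FPKM in control cDC1s, against 55.6 and 63.4 FPKM in control cDC2s. The others were Psmd7 (1.07), Psmd12 (0.96), Psmd11 (0.72) and Psmd13 (0.57). Psmd14, the lid enzyme that cuts off the ubiquitin chain, had 150 and 206 FPKM in control cDC1s and 98.0 and 115 FPKM in control cDC2s, and missed the threshold (limma adjusted p = 0.0588).

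None of the 3 other base subunits passed. Psmd4, a ubiquitin receptor, had 166 and 209 FPKM in control cDC1s and 115 and 143 FPKM in control cDC2s. Psmd2 had 93.7 and 66.7 FPKM in control cDC1s and 132 and 132 FPKM in control cDC2s (-0.73 ± 0.29 SE, limma adjusted p = 0.0563). Psmd1 had 38.9 and 36.3 FPKM in control cDC1s and 50.2 and 59.3 FPKM in control cDC2s (adjusted p = 0.0938 in the same limma fit). The libraries of the 2 groups did not overlap for Psmd1 or Psmd2, although neither passed, and with the length trend removed the values were -0.24 for Psmd2 and 0.01 for Psmd1.

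The ratio between the particles, with no correction for transcript length, was as follows. The median FPKM of the 14 core 20S genes was 2.18 and 2.68 times that of the 17 core 19S genes in control cDC1s, and 1.22 and 1.58 times in control cDC2s. This ratio was 1.65 and 1.82 in GM-CSF cDC1s and 1.19 and 1.32 in GM-CSF cDC2s. It was 1.10 and 1.27 in DC-Xs and between 1.62 and 1.90 in the 6 CD115-high libraries.

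The activators split into pairs. Psme1 and Psme2 encode the subunits of a ring that opens the 20S gate and is induced by interferon-gamma, and they had the highest log2 fold changes among the members as deposited, though not with the length trend removed, where Psma2 (1.54) and Psmb1 (1.23) were above Psme1 (1.20). The value of Psma2 there rests on its assigned transcript length. Psme1 had 812 and 1049 FPKM in control cDC1s, against 253 and 269 FPKM in control cDC2s (1.82 ± 0.20 SE, limma adjusted p = 2.01e-05). Psme2 had 719 and 989 FPKM in control cDC1s, against 274 and 260 FPKM in control cDC2s (1.66 ± 0.23 SE, limma adjusted p = 0.000131). The nuclear activators did not pass. Psme3 had 76.8 and 36.2 FPKM in control cDC1s and 83.5 and 66.2 FPKM in control cDC2s, and Psme4 had 2.79 and 3.96 FPKM in control cDC1s and 4.11 and 3.05 FPKM in control cDC2s, with overlapping libraries for both.

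**Figure D3:**
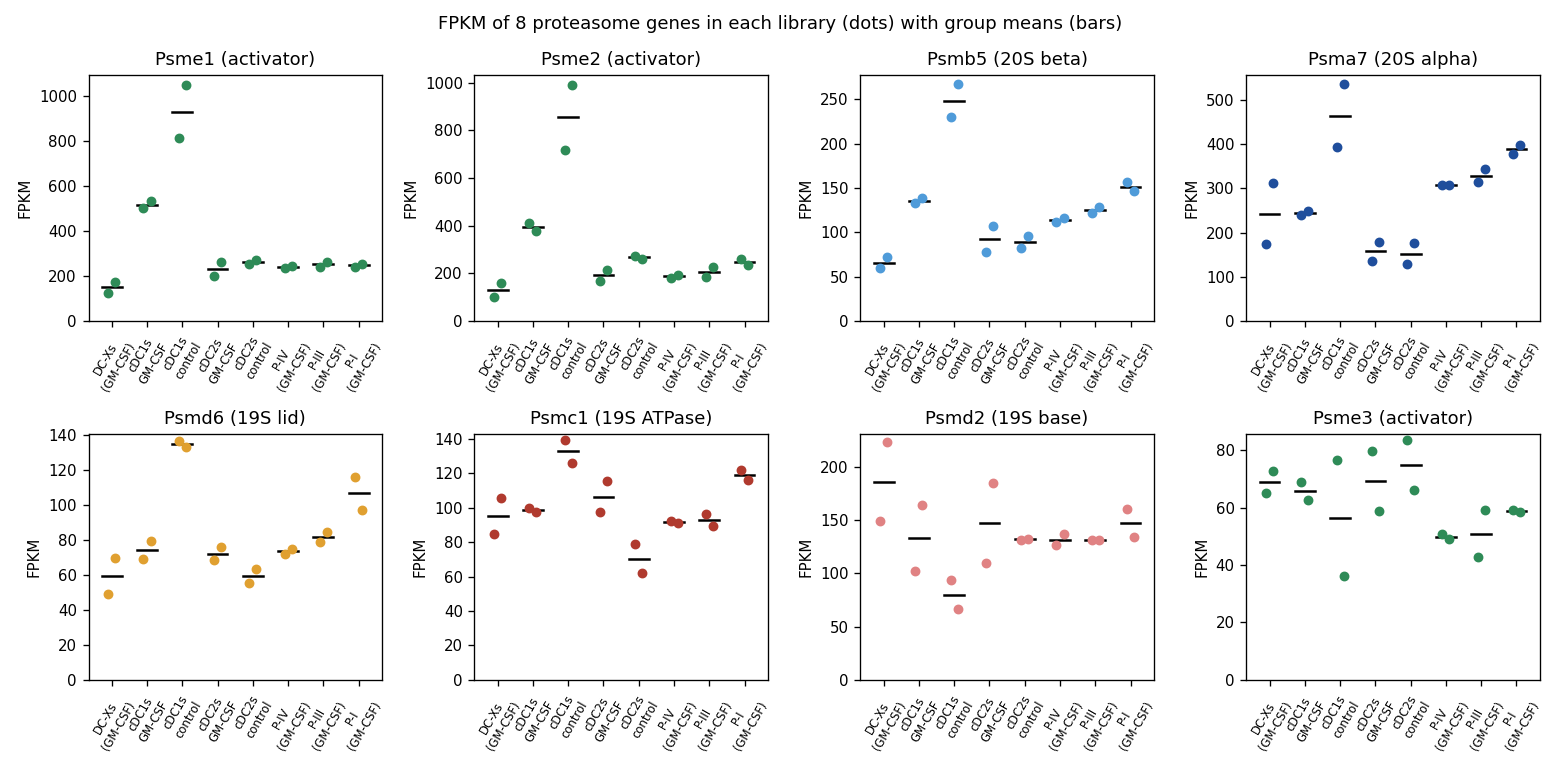
FPKM of 8 proteasome genes in each library (dots, 2 per group) with group means (bars); each panel has its own axis from 0. Psme1, Psme2, Psmb5, Psma7 and Psmd6 are highest in control cDC1s, Psmd2 is lowest there (93.7 and 66.7 FPKM), and Psme3 shows overlapping libraries between control groups.

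The promoters of Psme1, Psme2 and Psmb5 are shown because these genes passed between control cDC1s and control cDC2s, and between DC-Xs and GM-CSF cDC1s, in every alternative fit. They run from 250 bases before to 50 bases after an annotated start, from RefSeq on build GRCm38.p6, read on the gene's own strand. For Psme2 the start used lies inside the annotated gene, which reaches to chr14:55591101. Its window therefore extends less than 250 bases beyond that end. Psme1 and Psme2 lie near each other on chromosome 14, at chr14:55578244-55578543 on the plus strand and chr14:55590972-55591271 on the minus strand, and Psmb5 is at chr14:54617946-54618245 on the minus strand. Capitals mark matches, on either strand, to the core of the antioxidant response element TGACNNNGC, which Nfe2l1 and related factors bind, to the CCAAT box CCAAT, or to the core of the interferon-stimulated response element, which interferon regulatory factors bind.
Psme1: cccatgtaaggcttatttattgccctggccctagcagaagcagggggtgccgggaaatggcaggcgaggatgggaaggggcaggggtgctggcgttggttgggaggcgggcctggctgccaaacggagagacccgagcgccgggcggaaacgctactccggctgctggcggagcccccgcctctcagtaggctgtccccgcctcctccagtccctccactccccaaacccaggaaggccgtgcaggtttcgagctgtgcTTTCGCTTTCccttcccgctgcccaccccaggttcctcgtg
Psme2: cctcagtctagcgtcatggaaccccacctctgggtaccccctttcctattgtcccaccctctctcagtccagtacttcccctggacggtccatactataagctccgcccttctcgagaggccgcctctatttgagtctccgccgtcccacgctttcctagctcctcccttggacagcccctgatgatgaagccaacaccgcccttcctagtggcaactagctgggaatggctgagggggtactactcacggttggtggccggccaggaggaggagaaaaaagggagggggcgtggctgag
Psmb5: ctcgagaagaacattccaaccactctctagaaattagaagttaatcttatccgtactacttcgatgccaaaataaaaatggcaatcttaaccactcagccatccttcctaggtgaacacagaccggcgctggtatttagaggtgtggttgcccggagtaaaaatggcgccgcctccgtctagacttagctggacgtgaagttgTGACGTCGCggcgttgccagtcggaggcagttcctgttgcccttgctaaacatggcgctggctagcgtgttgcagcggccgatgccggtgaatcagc

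Psmb5 held 1 match to the antioxidant response element, which began 47 bases before the start, and Psme1 held 1 match to the interferon-stimulated element, on the reverse strand, which began 9 bases after the start. Psme2 held no match in this window. Of the 42 genes 35 had a promoter in the table, and Psma8, Psmb1, Psmb2, Psmb7, Psmc3, Psmd3 and Psmd7 were not matched. The interferon-stimulated motif was chosen after the sequences were seen. The antioxidant element was in 6 of these 35 (17.1%), namely Psmb5, Psmb6, Psmc6, Psmd12, Psmd9 and Psme4, against 12.4% of all 32851 promoters. The CCAAT box was in 12 (34.3%), 4 of them alpha-ring genes, against 37.4% of all promoters. The interferon-stimulated element was in 4 (11.4%), in Psme1, Psmb3, Psmd4 and Psmd9, against 3.44% of all promoters. Matches of such short motifs are a description, not binding sites.

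Transcript length moved with this comparison. Over all genes tested the rank correlation between fold change and transcript length was -0.42, a description across genes, which are not independent. In the shortest class the median log2 fold change was 1.23 for the 20 proteasome genes and 0.59 for all genes, with 15 of the 20 higher against 45.9% of all. In the second class the medians were 0.92 for 13 proteasome genes and 0.05 for all genes, with 9 of 13 higher against 22.0%. In the third class they were -0.13 for 6 proteasome genes and -0.43 for all genes. With each library's trend on transcript length removed, 20 of the 26 genes still passed as higher, and the median of the 41 genes was 0.59. Psma2, with a long assigned transcript of 2911 bases, had 264 and 365 FPKM in control cDC1s, against 126 and 175 FPKM in control cDC2s, a log2 fold change of 1.06 that became 1.54 with the trend removed. The value of 1.54 rests on this assigned length, which need not be the one behind the deposited FPKM. Psma1, Psma6, Psmb2, Psmb3, Psmb6 and Psmc5 no longer passed there, Psme2b passed as lower, and Psme1 had 1.20 and Psme2 0.88, both still past the threshold.

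**Figure D4:**
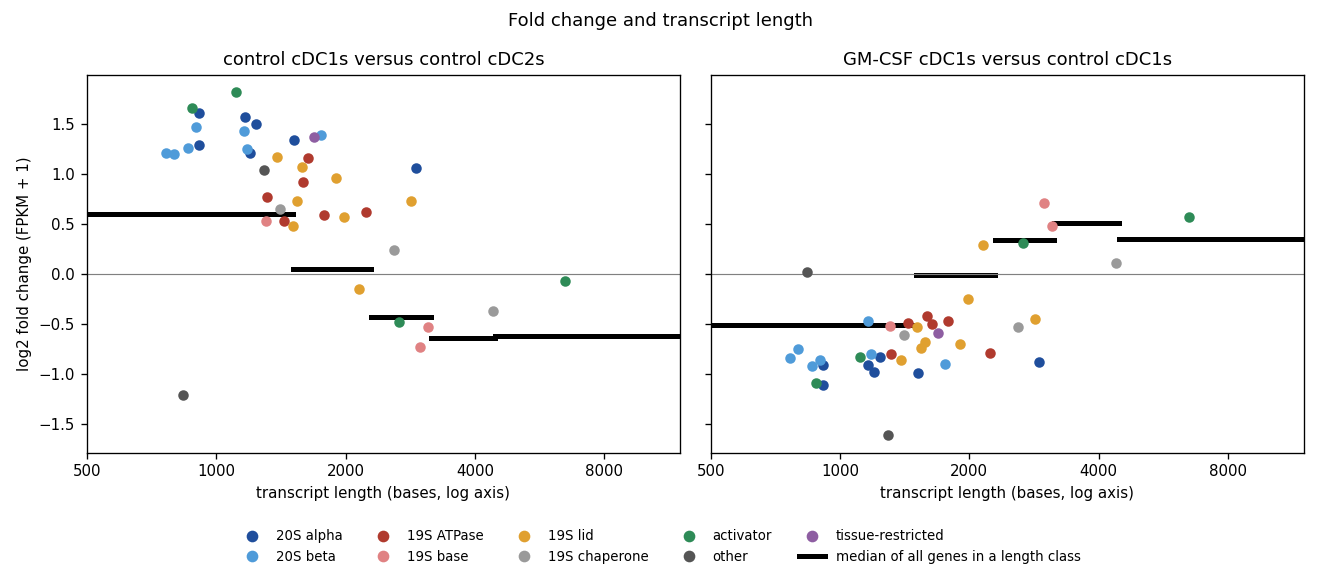
Log2 fold change of the 41 tested proteasome genes (dots, coloured by role) against transcript length on a log axis, with the median of all genes in each of 5 length classes (black bars). Most proteasome genes sit further from 0 than the bar of their own class in control cDC1s versus control cDC2s (left), and the class medians turn over in GM-CSF cDC1s versus control cDC1s (right).

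When the spread came only from the 4 libraries compared, 13 genes passed as higher. The scaling set the split over all genes: 2074 were higher and 3224 lower as deposited, 2649 and 2274 after quantile normalization, and 2553 and 2573 after median-of-ratios scaling, with all-gene medians of 0.02 and -0.08. Under these scalings 21 proteasome genes were higher with 1 lower, and 32 were higher with 0 lower.

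Outside the rule, several assembly factors of the core were higher in the same comparison. Pomp, the maturation factor of the 20S barrel, was higher by 2.19 ± 0.31 (SE, limma adjusted p = 0.000132), and the chaperones Psmg4, Psmg1 and Psmg3 by 1.75, 1.05 and 1.03, while Psmg2 did not pass (0.51, limma adjusted p = 0.092). The ubiquitin receptor Adrm1 (0.55), the lid component Shfm1 (1.47) and the deubiquitinase Uchl5 (0.88) were also higher. Of the 15 tested assembly and accessory genes 7 were higher and 3 lower. The lower genes were the ubiquitin ligase Ube3c (-1.49), AI314180 (-1.30) and Akirin2 (-0.60), which carries proteasomes into the nucleus. Of 18 tested genes of proteasome transcription and ubiquitin delivery 2 were higher and 8 lower. Nfe2l1, the transcription factor that raises proteasome genes when the proteasome is blocked, was lower by 1.03 on the log2 scale (limma adjusted p = 0.0087), as were Ddi2 (-2.26) and Ngly1 (-0.92), the protease and the glycanase that process it. The background shares over all genes, 18.3% higher and 28.4% lower, apply to these lists too, but they varied with transcript length. In the shortest length class 45.9% of all genes were higher. In the classes of 3156 to 4447 bases and above, 43.5% and 41% of all genes were lower. The fold changes of these lists are as deposited, and the part of transcript length in them was not tested. Of the 3 interferon-inducible beta subunits 2 were higher. Psmb8 had 1129 and 1518 FPKM in control cDC1s, against 333 and 502 FPKM in control cDC2s, and Psmb9 had 777 and 1314 FPKM in control cDC1s, against 242 and 368 FPKM in control cDC2s. Psmb10 differed less, with 125 and 179 FPKM in control cDC1s and 94.0 and 113 FPKM in control cDC2s.

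The second comparison asked what GM-CSF did in cDC1s. Proteasome genes fell: 18 of 41 were lower and 0 higher in GM-CSF cDC1s than in control cDC1s, against 10.6% of all genes lower and 16.1% higher, and 3 fell at least 2-fold, against 14.8% of all genes that changed at least 2-fold in either direction. The median log2 fold change was -0.70 over the 41 genes and 0.14 over all genes tested. Over all genes 1827 were higher and 1200 lower as deposited, against 1173 and 1239 after quantile normalization and 1414 and 1467 after median-of-ratios scaling, where all-gene medians were -0.02 and 0.04. This comparison uses the same control cDC1 libraries as the one between subsets, so the values are given side by side and the direction is not independent of it.

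In the 20S core 6 of 7 alpha-ring genes and 4 of 7 beta-ring genes fell. Psma6 had 113 and 133 FPKM in GM-CSF cDC1s, against 227 and 311 FPKM in control cDC1s (-1.11 ± 0.24 SE, limma adjusted p = 0.00674). Psma3 had 101 and 112 FPKM in GM-CSF cDC1s, against 176 and 255 FPKM in control cDC1s. Psma1 had 175 and 202 FPKM in GM-CSF cDC1s, against 313 and 440 FPKM in control cDC1s. The libraries of the groups did not overlap for these genes. Psma5 did not pass (-0.83, limma adjusted p = 0.0902).

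Psmb5 had 133 and 138 FPKM in GM-CSF cDC1s, against 230 and 267 FPKM in control cDC1s (-0.87 ± 0.18 SE, limma adjusted p = 0.00665). Psmb1, Psmb2 and Psmb4 also fell, by 0.90, 0.92 and 0.80 on the log2 scale. Psmb6 had 137 and 149 FPKM in GM-CSF cDC1s and 197 and 293 FPKM in control cDC1s, and Psmb7 had 101 and 140 FPKM in GM-CSF cDC1s and 153 and 179 FPKM in control cDC1s. Neither passed, although the libraries did not overlap.

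In the 19S particle 2 of 6 ATPases (Psmc5, -0.80, and Psmc6, -0.79) and 3 of 8 lid genes (Psmd6, -0.86, Psmd12, -0.70, and Psmd7, -0.68) fell. Psmd6 had 69.1 and 79.1 FPKM in GM-CSF cDC1s, against 136 and 133 FPKM in control cDC1s. Psmc6 had 47.7 and 48.4 FPKM in GM-CSF cDC1s, against 85.8 and 81.7 FPKM in control cDC1s. None of the 3 base subunits passed. Psmd2 had 103 and 165 FPKM in GM-CSF cDC1s and 93.7 and 66.7 FPKM in control cDC1s (0.71, and 0.30 with the length trend removed).

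Of the activators Psme2 fell by 1.09 on the log2 scale (SE 0.23, limma adjusted p = 0.00665) and Psme1 by 0.83 (SE 0.20, limma adjusted p = 0.0112). Psme2 had 412 and 378 FPKM in GM-CSF cDC1s, against 719 and 989 FPKM in control cDC1s. Psme1 had 502 and 534 FPKM in GM-CSF cDC1s, against 812 and 1049 FPKM in control cDC1s. Even after treatment both stood above every library of the other 6 groups. With the length trend removed neither passed, at -0.45 for Psme2 (limma adjusted p = 0.102) and -0.32 for Psme1 (limma adjusted p = 0.193). Psme3 and Psme4 did not pass.

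Transcript length moved with the GM-CSF effect in cDC1s as well, in the opposite sense: the rank correlation over all genes was 0.46. In the shortest class the median was -0.84 for proteasome genes and -0.51 for all genes, with 12 of 20 lower against 34.6% of all. In the second class it was -0.59 for 13 proteasome genes and -0.01 for all genes, with 5 of 13 lower against 10.2%. With the trend on transcript length removed, 3 genes passed, all lower: Psma2 (-1.28), Psmc6 (-0.94) and Psmd12 (-0.68), beside 6.18% of all genes, so the share of members that fell was then near that of all genes. The median of the 41 genes was -0.33. The value of Psma2 rests on its assigned transcript length.

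The number of genes that passed rested on the libraries and on the spread used. It was 6 without control cDC1 replicate 2, 6 (5 of them lower) without GM-CSF cDC1 replicate 1, 7 without GM-CSF cDC1 replicate 2, and 27 (26 lower) without control cDC1 replicate 1. With the spread taken from the 10 DC-gate libraries, from the 4 libraries compared, or with weights per library, 0 passed, and in the fit of 4 libraries no gene of the whole table passed, while at an unadjusted p below 0.05 in the fit of all 16 libraries 29 of the 41 did.

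**Figure D5:**
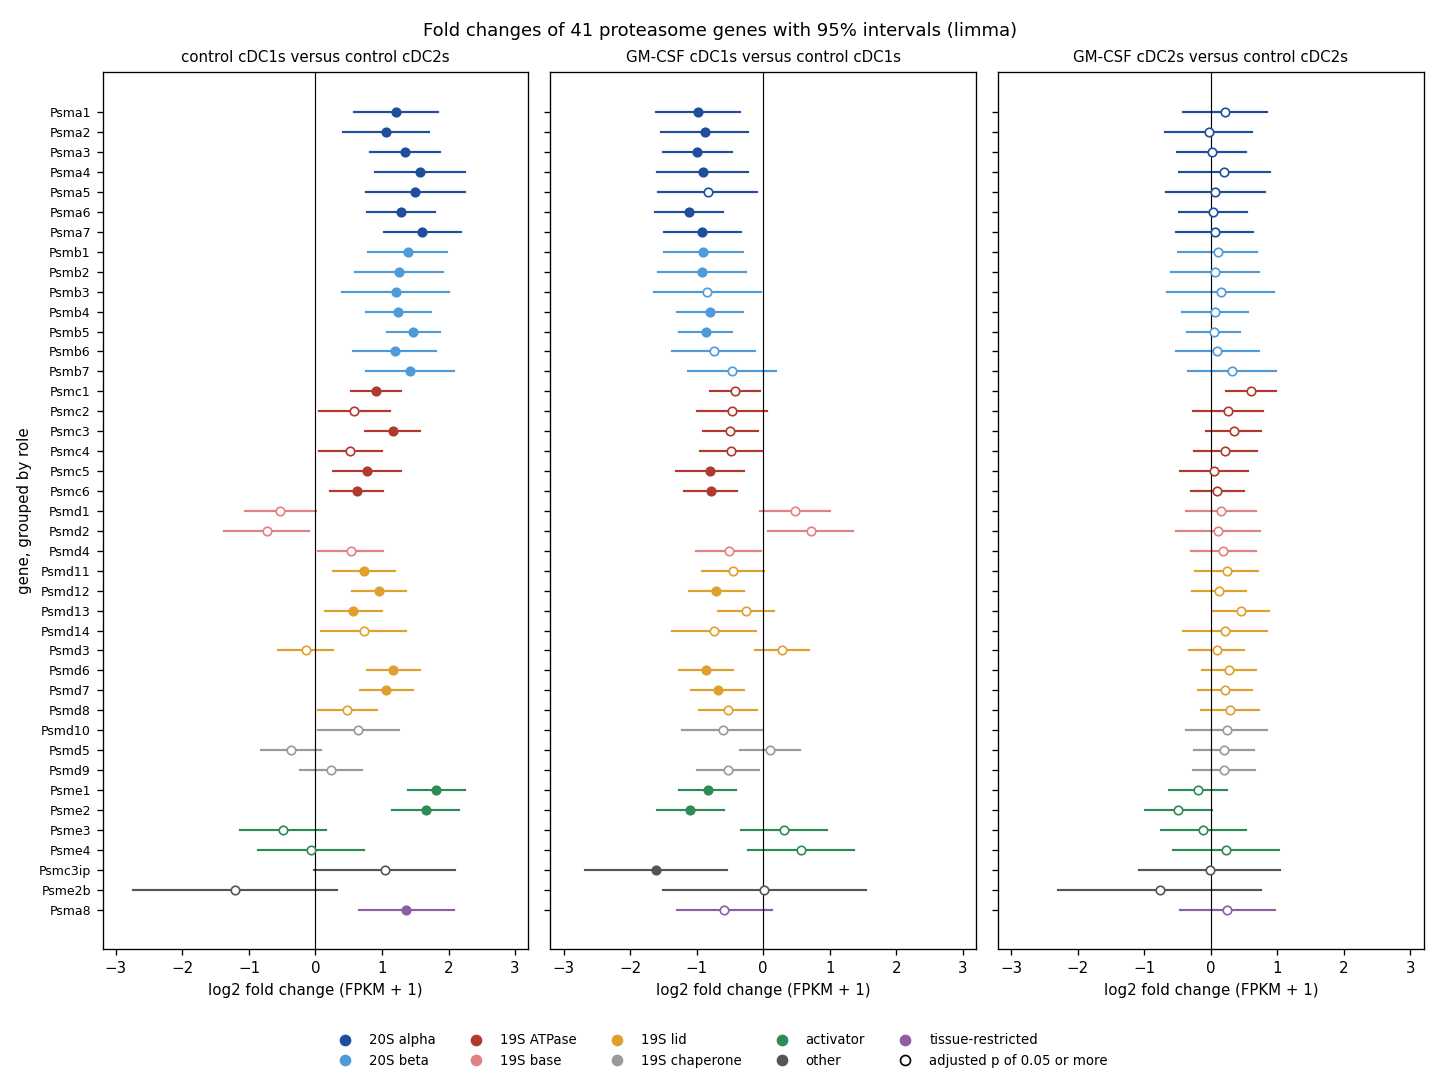
Log2 fold changes (FPKM + 1) of the 41 tested proteasome genes with 95% intervals from limma, in control cDC1s versus control cDC2s (left), GM-CSF cDC1s versus control cDC1s (middle) and GM-CSF cDC2s versus control cDC2s (right). Filled dots passed at an adjusted p below 0.05: 26 genes are higher on the left, 18 are lower in the middle and none passed on the right.

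In cDC2s no proteasome gene passed after GM-CSF: 0 of 41 were higher and 0 lower by limma, against 4.51% and 2.82% of all genes, and 2 had an unadjusted p below 0.05. The median was 0.15 over the 41 genes and 0.02 over all genes tested. The 2 were Psmc1, with 97.6 and 115 FPKM in GM-CSF cDC2s and 78.9 and 61.9 FPKM in control cDC2s (0.60, 95% interval 0.22 to 0.97, limma adjusted p = 0.0585), and Psmd13 (0.45). Psmb5 had 77.8 and 107 FPKM in GM-CSF cDC2s and 82.0 and 96.0 FPKM in control cDC2s, a difference of 0.04 with a 95% interval of -0.36 to 0.44. Psme1 had 200 and 261 FPKM in GM-CSF cDC2s and 253 and 269 FPKM in control cDC2s. Psme2 had 168 and 215 FPKM in GM-CSF cDC2s and 274 and 260 FPKM in control cDC2s (-0.49, 95% interval -0.99 to 0.01). Changes of about 0.60 on the log2 scale could be missed here even for Psmc1, whose SD between replicates was 0.139. Over the core subunits that SD had a median of 0.24, so larger changes could be missed in other genes. Psme2b had the largest fold change, -0.77, and did not pass. The interval of Psmc1 excluded 0, yet Psmc1 did not pass after adjustment over all genes.

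The 2 effects of GM-CSF were then set against each other in 1 contrast, the effect in cDC1s minus that in cDC2s. Of 41 genes 2 passed as lower and 0 as higher, against 2.93% and 4.41% of all genes, and both differed at least 2-fold, against 6.84% of all genes in either direction. These were Psmd6 (-1.13 ± 0.26 SE, limma adjusted p = 0.0283) and Psmc1 (-1.02 ± 0.24 SE, limma adjusted p = 0.0311). Psmd6 had 68.5 and 75.7 FPKM in GM-CSF cDC2s and 55.6 and 63.4 FPKM in control cDC2s, and Psmc1 had 99.9 and 97.6 FPKM in GM-CSF cDC1s and 139 and 126 FPKM in control cDC1s, with no overlap in either subset for either gene. The median of this contrast was -0.84 over the 41 genes and 0.14 over all genes, its rank correlation with transcript length was 0.48, and 0 genes passed once the length trend was removed. Without control cDC1 replicate 1 the number that passed was 18 (17 lower), and it was 0 without GM-CSF cDC1 replicate 1 or GM-CSF cDC2 replicate 2, and 1 without GM-CSF cDC1 replicate 2 or control cDC2 replicate 2.

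In treated mice the comparison between cDC subsets was repeated. Of 41 genes 3 were higher in GM-CSF cDC1s than in GM-CSF cDC2s and 0 lower, against 8.53% and 13% of all genes, and 2 were at least 2-fold higher, against 14.8% of all genes in either direction. The median was 0.05 over the 41 genes. Psme1 had 502 and 534 FPKM in GM-CSF cDC1s, against 200 and 261 FPKM in GM-CSF cDC2s (1.18 ± 0.20 SE, limma adjusted p = 0.000968). Psme2 had 412 and 378 FPKM in GM-CSF cDC1s, against 168 and 215 FPKM in GM-CSF cDC2s (1.05 ± 0.23 SE, limma adjusted p = 0.00582). Psmb5, at 133 and 138 FPKM in GM-CSF cDC1s and 77.8 and 107 FPKM in GM-CSF cDC2s, was the third (0.57 ± 0.18 SE, limma adjusted p = 0.0442). The rank correlation with transcript length was -0.09. Over all genes 967 were higher and 1478 lower, against 1224 and 1203 after quantile normalization. Psmb5 did not pass with no filter, library weights, the length correction, the DC-gate libraries alone or the compared libraries alone, nor without GM-CSF cDC1 replicate 1, GM-CSF cDC1 replicate 2 or GM-CSF cDC2 replicate 1. Without GM-CSF cDC2 replicate 1 only Psme1 passed.

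Against GM-CSF cDC1s 7 of 41 genes were lower in DC-Xs and 0 higher, against 12.5% and 11.7% of all genes, and 4 were at least 2-fold lower, against 16.4% of all genes in either direction. The share of members that were lower was near the background, and the values are given gene by gene. Psme1 had 126 and 173 FPKM in DC-Xs, against 502 and 534 FPKM in GM-CSF cDC1s (-1.81 ± 0.20 SE, limma adjusted p = 2.6e-05). Psme2 had 102 and 157 FPKM in DC-Xs, against 412 and 378 FPKM in GM-CSF cDC1s (-1.63 ± 0.23 SE, limma adjusted p = 0.00021). Among the treated groups, both genes had their lowest mean in DC-Xs and their highest in GM-CSF cDC1s.

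The other 5 were beta-ring genes and Psma3. Psmb5 had 59.6 and 72.1 FPKM in DC-Xs, against 133 and 138 FPKM in GM-CSF cDC1s (-1.04 ± 0.18 SE, limma adjusted p = 0.00115). Psmb7 had 43.5 and 74.0 FPKM in DC-Xs, against 101 and 140 FPKM in GM-CSF cDC1s. Psmb4 had 49.6 and 61.6 FPKM in DC-Xs, against 100 and 110 FPKM in GM-CSF cDC1s. In all 3 genes both DC-X libraries were below both cDC1 libraries, and Psmb1 (-0.87) and Psma3 (-0.73) completed the set. Psma7 had 174 and 312 FPKM in DC-Xs and 239 and 248 FPKM in GM-CSF cDC1s, with overlap. The number that passed was 16 without DC-X replicate 2, and 3 without DC-X replicate 1 or without GM-CSF cDC1 replicate 2.

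Against GM-CSF cDC2s 2 of 41 genes were lower in DC-Xs and 0 higher, against 13.3% and 8.8% of all genes. Psme1 had 126 and 173 FPKM in DC-Xs, against 200 and 261 FPKM in GM-CSF cDC2s (-0.63 ± 0.20 SE, limma adjusted p = 0.0391). Over all genes 997 were higher and 1506 lower, against 1192 and 1034 after median-of-ratios scaling. Psmc6 had 33.2 and 44.4 FPKM in DC-Xs, against 59.2 and 56.6 FPKM in GM-CSF cDC2s (-0.58 ± 0.18 SE, limma adjusted p = 0.0394). Psma7 had 174 and 312 FPKM in DC-Xs and 136 and 179 FPKM in GM-CSF cDC2s and did not pass. The number that passed was 7 without DC-X replicate 2, 1 (higher) without DC-X replicate 1, and 0 without GM-CSF cDC2 replicate 2.

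Against P-IV, largely the same cells sorted through the CD115-high gate, 1 gene was lower in DC-Xs and 0 higher, against 2.37% and 0.309% of all genes. It was Psmb5, with 59.6 and 72.1 FPKM in DC-Xs, against 112 and 116 FPKM in P-IV (-0.78 ± 0.18 SE, limma adjusted p = 0.0438), and it no longer passed when any 1 of the 4 libraries was left out. The largest fold change was that of Psmb4, which had 49.6 and 61.6 FPKM in DC-Xs and 101 and 101 FPKM in P-IV and did not pass. The rank correlation with transcript length over all genes was 0.23.

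The CD115-high groups were compared with the P-I monocytes from treated mice. In P-III 0 of 41 genes were higher and 0 lower than in P-I, against 1.18% and 2.77% of all genes by limma, and 2 had an unadjusted p below 0.05 (Psmd8 and Psmc3ip). In P-IV 0 were higher and 0 lower than in P-I, against 3.19% and 6.1% of all genes by limma, and 3 had an unadjusted p below 0.05 (Psmd8, Psmd6 and Psmb5). Both P-III libraries were below both P-I libraries for 30 of the 41 genes, against 39.8% of all genes tested, and both P-IV libraries for 31 of the 41, against 46.8%. The medians were -0.24 for P-III and -0.30 for P-IV over the 41 genes, against -0.07 and -0.10 over all genes tested. Over all genes 134 were higher and 314 lower in P-III as deposited, and 164 and 242 after quantile normalization. In P-IV 362 were higher and 691 lower as deposited, and 464 and 505 after quantile normalization, and 0 proteasome genes passed in either comparison.

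Psmd8, a lid subunit, had 123 and 134 FPKM in P-IV and 135 and 148 FPKM in P-III, against 191 and 194 FPKM in P-I. Psmd6 had 71.9 and 74.9 FPKM in P-IV and 79.0 and 84.4 FPKM in P-III, against 116 and 97.4 FPKM in P-I. Psmb5 had 112 and 116 FPKM in P-IV and 121 and 128 FPKM in P-III, against 156 and 146 FPKM in P-I. In each of these genes P-I stood above both other groups without overlap. The call depended on whose spread was used. With the spread of only the 4 libraries compared, 20 of the 41 genes were lower in P-IV than in P-I, beside 21.8% of all genes tested, and 4 were lower in P-III, beside 7.76%.

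Between P-IV and P-III no proteasome gene passed: 0 of 41 were higher and 0 lower by limma, against 0.291% and 0.326% of all genes, and 0 had an unadjusted p below 0.05. The median was -0.03. Psme1 had 238 and 244 FPKM in P-IV and 241 and 264 FPKM in P-III, beside 242 and 255 FPKM in P-I. Psme2 had 180 and 194 FPKM in P-IV and 184 and 225 FPKM in P-III, beside 261 and 233 FPKM in P-I. Psma7 had 307 and 309 FPKM in P-IV and 314 and 343 FPKM in P-III, beside 378 and 398 FPKM in P-I.

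Ordered by group mean, Psme1 formed tiers: control cDC1s (930 ± 167 FPKM), GM-CSF cDC1s (518 ± 22.9 FPKM), a middle set of control cDC2s, P-III, P-I, P-IV and GM-CSF cDC2s with single libraries between 200 and 269 FPKM, and DC-Xs (149 ± 33.2 FPKM; SD, n = 2 each). Neighbours within the middle set overlapped. This order of means is a description. Psme1 did not pass between DC-Xs and P-IV, which are largely the same cells. With the length trend removed it did not pass between DC-Xs and GM-CSF cDC2s either (-0.35, limma adjusted p = 0.14). Psmb5 ran from control cDC1s (248 ± 26.7 FPKM) through P-I, GM-CSF cDC1s, P-III and P-IV to GM-CSF cDC2s, control cDC2s and DC-Xs (65.9 ± 8.86 FPKM), so the CD115-high groups ranked above both cDC2 groups in this gene.

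Of the remaining members, Psmc3ip, Psma8 and Psmb11 were low. Psmc3ip, a recombination factor named for its binding to Psmc3, had 1.36 and 4.27 FPKM in GM-CSF cDC1s, against 6.22 and 15.1 FPKM in control cDC1s, and fell (-1.61 ± 0.49 SE, limma adjusted p = 0.0298). Psma8, the testis form of an alpha-ring subunit, had 1.31 and 3.75 FPKM in control cDC1s, against 0 and 0.648 FPKM in control cDC2s (1.37 ± 0.33 SE, limma adjusted p = 0.00478), levels at the filter of 1 FPKM. Psmb11, the beta subunit of thymic epithelium, was listed at 0 in 15 libraries and at 0.00129 FPKM in 1. Psme2b is a copy of Psme2, and 68.7% of its 50-base windows occur unchanged in Psme2 transcripts, so reads of the genes could be shared and its values are uncertain. It had 35.4 and 6.89 FPKM in GM-CSF cDC1s and 58.5 and 24.3 FPKM in control cDC2s, the widest spread between replicates among the members, and replicate 1 was the higher library in every group.

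The chaperones of 19S assembly did not pass in any comparison. Psmd9 had 9.27 and 15.2 FPKM in control cDC1s and 9.94 and 9.98 FPKM in control cDC2s. Psmd5, whose transcript of 4397 bases is the second longest of the group, had 43.2 and 36.8 FPKM in control cDC1s and 53.8 and 50.3 FPKM in control cDC2s. Psme4, with the longest transcript (6491 bases), never exceeded 7.59 FPKM.

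In GM-CSF cDC1s against control cDC1s, 7 of the 15 assembly and accessory genes fell and 2 rose, and 1 of 18 transcription and delivery genes fell and 2 rose. Over all genes tested 10.6% were lower and 16.1% higher, and in the shortest length class 34.6% were lower. The fold changes of these lists are as deposited, with no length trend removed. Pomp and Psmg1 fell by 1.04 each on the log2 scale, with Psmg4, Psmg3, Psmg2, Shfm1 and Uchl5, while Ube3c rose by 1.31. Of the interferon-inducible subunits Psmb10 fell by 0.75 (limma adjusted p = 0.0265). Psmb8 had 614 and 835 FPKM in GM-CSF cDC1s and 1129 and 1518 FPKM in control cDC1s, and Psmb9 506 and 764 FPKM in GM-CSF cDC1s and 777 and 1314 FPKM in control cDC1s, and neither passed. In GM-CSF cDC2s against control cDC2s 0 genes of these lists passed by limma. The FPKM of Psmb8, Psmb9 and Psmb10 summed to 3.50 and 4.07 times that of Psmb5, Psmb6 and Psmb7 in control cDC1s. This summed ratio was 2.99 and 3.39 in control cDC2s, and 1.87 and 1.94 in P-I, the lowest of the 8 groups. The single pairs did not all follow it. Psmb9 over Psmb6 was 3.93 and 4.48 in control cDC1s and 2.55 and 3.18 in control cDC2s. Psmb8 over Psmb5 was 4.92 and 5.68 against 4.07 and 5.23, with overlap. Psmb10 over Psmb7 went the other way, at 0.814 and 1 against 1.99 and 1.45. Psmb9 over Psmb6 was lower in DC-Xs (1.38 and 1.35) than in P-I.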

How the data were processed

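Cells of 8 groups were sorted from spleen, with 2 libraries per group. The study gives 2 mice per population, so p-values measure the spread between these samples only. The authors made libraries with a low-input SMARTer kit. Per the submitters' notes, reads were converted with bcl2fastq 1.8.4, aligned to mm10 with HISAT2 2.1.0 and quantified with StringTie 1.3.4d. Per gene, the authors deposited FPKM and no counts. Low values gave no clear step of 1 read in the 8 cDC libraries (the commonest step held at most 4.12% of low genes), so their depth is unknown. In the other 8 libraries the commonest step (5.81% to 9.8% of low genes) was clearer, but no depth is used here.

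log2(FPKM + 1) of the 11335 genes with at least 1 FPKM in at least 2 libraries was fitted with limma 3.58.1 (R 4.3.3, trend option) as 8 group means over all 16 libraries, with 8 residual degrees of freedom. Contrasts were adjusted by Benjamini-Hochberg over all genes tested. The fit was tested on simulated data first. Transcript lengths were assigned from reference transcripts, not from the authors' quantification, and matched 99.6% of genes tested. Values per library are given for Psmb5, Psmb6, Psmb7, Psme1 to Psme4, Psmc1, Psmd1, Psmd2, Psmd4, Psmd14, Psma3, Psma7, Psma8 and Psmb11, and for up to 5 genes per direction and comparison with the largest fold change among those that passed; other members named with values were chosen after their values were seen. The members, roles and lists were chosen with earlier results of these data known.

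The alternatives were quantile normalization, median-of-ratios scaling, a pseudocount of 0.1, no filter, the compared libraries alone, weights per library, a replicate block, removal of each library's trend on transcript length, a 2-fold minimum and leaving out each library. A fit of the 10 DC-gate libraries alone was added after seeing the data.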

Additional observations from a re-analysis of the deposited data

Results flagged for a closer look

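Between cDC1s and cDC2s the effect of GM-CSF differed for Psmd6, by -1.13 on the log2 scale (cDC1s minus cDC2s, limma adjusted p = 0.0283), and for Psmc1, by -1.02 (limma adjusted p = 0.0311), by the test of the difference itself. They were 2 of 41 genes lower with 0 higher, against 2.93% and 4.41% of all genes, so the count was near the background. Both genes were lower in both GM-CSF cDC1 libraries than in both control cDC1 libraries and higher in both GM-CSF cDC2 libraries than in both control cDC2 libraries. Neither passed with quantile normalization, library weights, the length correction, the DC-gate libraries alone or the compared libraries alone, nor without GM-CSF cDC1 replicate 1 or GM-CSF cDC2 replicate 2.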

How the results depend on the processing

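The counts of proteasome genes that passed depended on the fit. In GM-CSF cDC1s versus control cDC1s (18 as reported) 11 passed with quantile normalization (10 lower, 9 of them among the 18, and Psmd2 higher), 9 with no filter, 3 with the length correction, 3 with a 2-fold minimum, and 0 with library weights, with the compared libraries alone or with the DC-gate libraries alone, a fit chosen after seeing the data. For the GM-CSF effect in cDC1s minus that in cDC2s (2) the count was 0 with quantile normalization, weights, the length correction, the DC-gate libraries or the compared libraries. Control cDC1s versus control cDC2s (26) gave 13 in the compared libraries alone. DC-Xs versus GM-CSF cDC1s (7) gave 4 with median-of-ratios scaling, no filter, the length correction, the compared libraries or a 2-fold minimum, and 3 in the DC-gate libraries. DC-Xs versus GM-CSF cDC2s (2) gave 1 lower gene with quantile normalization (Psme1) or no filter (Psmc6), 1 higher gene and neither of the 2 with the length correction (Psma7), and 0 in 5 others (median-of-ratios, weights, DC-gate, compared libraries, 2-fold). DC-Xs versus P-IV (1) gave 6 with weights and 0 with median-of-ratios scaling, no filter, the length correction, the compared libraries or a 2-fold minimum. P-III versus P-I (0) gave 12 lower with weights, beside 15.6% of all genes, and 4 in the compared libraries, beside 7.76%. P-IV versus P-I (0) gave 20 lower in both, beside 25.8% and 21.8% of all genes. The F-test (27) gave 14 with no filter and 16 with the length correction. The cause of these shifts was not tested.

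Leaving out each library gave 6 to 27 genes in GM-CSF cDC1s versus control cDC1s, 0 to 18 for the difference of the GM-CSF effects, 19 to 34 in control cDC1s versus control cDC2s, 1 to 3 in GM-CSF cDC1s versus GM-CSF cDC2s, 3 to 16 in DC-Xs versus GM-CSF cDC1s, 0 to 7 in DC-Xs versus GM-CSF cDC2s, 0 to 0 in DC-Xs versus P-IV, and 19 to 28 in the F-test; a lone library was assumed to vary like the other groups. Of 774 alternative fits of the 59 gene calls, 521 kept the call, 253 kept only the direction and 0 reversed; 16 calls held in every fit, among them Psme1, Psme2 and Psmb5 in control cDC1s versus control cDC2s and in DC-Xs versus GM-CSF cDC1s.

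The labels do not say that replicate numbers mark shared animals or days, and same-numbered deviations correlated between -0.20 and 0.67 across pairs of groups, and between 0.43 and 0.67 among the treated DC-gate groups. With a replicate block the counts were 23 in GM-CSF cDC1s versus control cDC1s, 34 in control cDC1s versus control cDC2s, 9 for the difference of the GM-CSF effects, 4 in GM-CSF cDC1s versus GM-CSF cDC2s, 10 in DC-Xs versus GM-CSF cDC1s, 3 in DC-Xs versus GM-CSF cDC2s, 4 in DC-Xs versus P-IV and 1 in P-IV versus P-I. The depth of the cDC libraries is unknown, so counting error could not be separated from other spread.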
